A study of Caenorhabditis elegans with 2 samples.

Results

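A set of 8 genes that build cell polarity and cell junctions in epithelia was examined for binding by ELT-2 in worms of the first larval stage (L1). They are par-3, par-6, pkc-3, let-413, dlg-1, ajm-1, hmr-1 and hmp-1, which make 8 of the 19973 protein-coding genes on the 6 nuclear chromosomes of Caenorhabditis elegans. They were chosen as named proteins of the apical and junctional domains, and a peak was taken to belong to a gene where its summit lay inside the gene or within 5 kb of it. By that rule 15 of the 5443 peaks in the thresholded list belonged to these genes. A gene runs from the outermost start to the outermost end of its annotated transcripts.

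The peaks come from chromatin immunoprecipitation with sequencing (ChIP-seq) of ELT-2, a GATA-type zinc finger factor of the worm intestine. Hermaphrodite animals of strain OP56 (unc-119(ed3) III; wgIs56) were used, in which the transgene wgIs56 supplies ELT-2 with a C-terminal GFP-FLAG tag. Whole L1 larvae were taken 6 h after synchronization by starvation, and the tagged protein was precipitated with an antibody against GFP. The 2 biological replicates form a single group without any contrasting condition, and how they were raised apart is not stated. The promoter that drives the transgene is not given in the labels, and the animals also carry the unc-119(ed3) allele. Whole animals were used, so the peaks cannot be divided among cell types, and no expression was measured.

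The intestine of the worm is a tube of epithelial cells whose apical face lines the gut lumen. PAR-3, PAR-6 and the atypical protein kinase C PKC-3 mark the apical domain, while LET-413, the worm Scribble protein, acts on the basolateral side and helps to gather the junctions into a belt. That belt holds a cadherin-catenin part, with the cadherin HMR-1 and the alpha-catenin HMP-1, and a more basal part made of DLG-1, the worm Discs large protein, and its partner AJM-1. These proteins serve epidermal, pharyngeal and other epithelia as well as the gut.

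Peaks were present around 7 of the 8 genes, against 45.8% of all protein-coding genes by the same rule. The exception was hmr-1. The 7 genes did not share 1 arrangement. ajm-1 held 7 peaks spread along the gene, pkc-3 and dlg-1 had 2 each, and let-413, hmp-1, par-3 and par-6 had 1 each. Those of par-3 and par-6 lay beside the 5′ ends of other genes. Counting only peaks whose nearest 5′ end was the gene's own left 5 genes (pkc-3, let-413, dlg-1, ajm-1 and hmp-1), against 19.7% of all genes, and 12 of the 15 peaks. With a promoter reaching from 1000 bp before any transcript 5′ end to 200 bp after it, a summit in a promoter was found for pkc-3, let-413 and ajm-1. That is 3 of 8 genes, against 17.0% of all genes. Longer genes have more room for a peak, and the median length of the 8 genes was 5769 bp against 2027 bp for all genes.

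**Figure D1:**
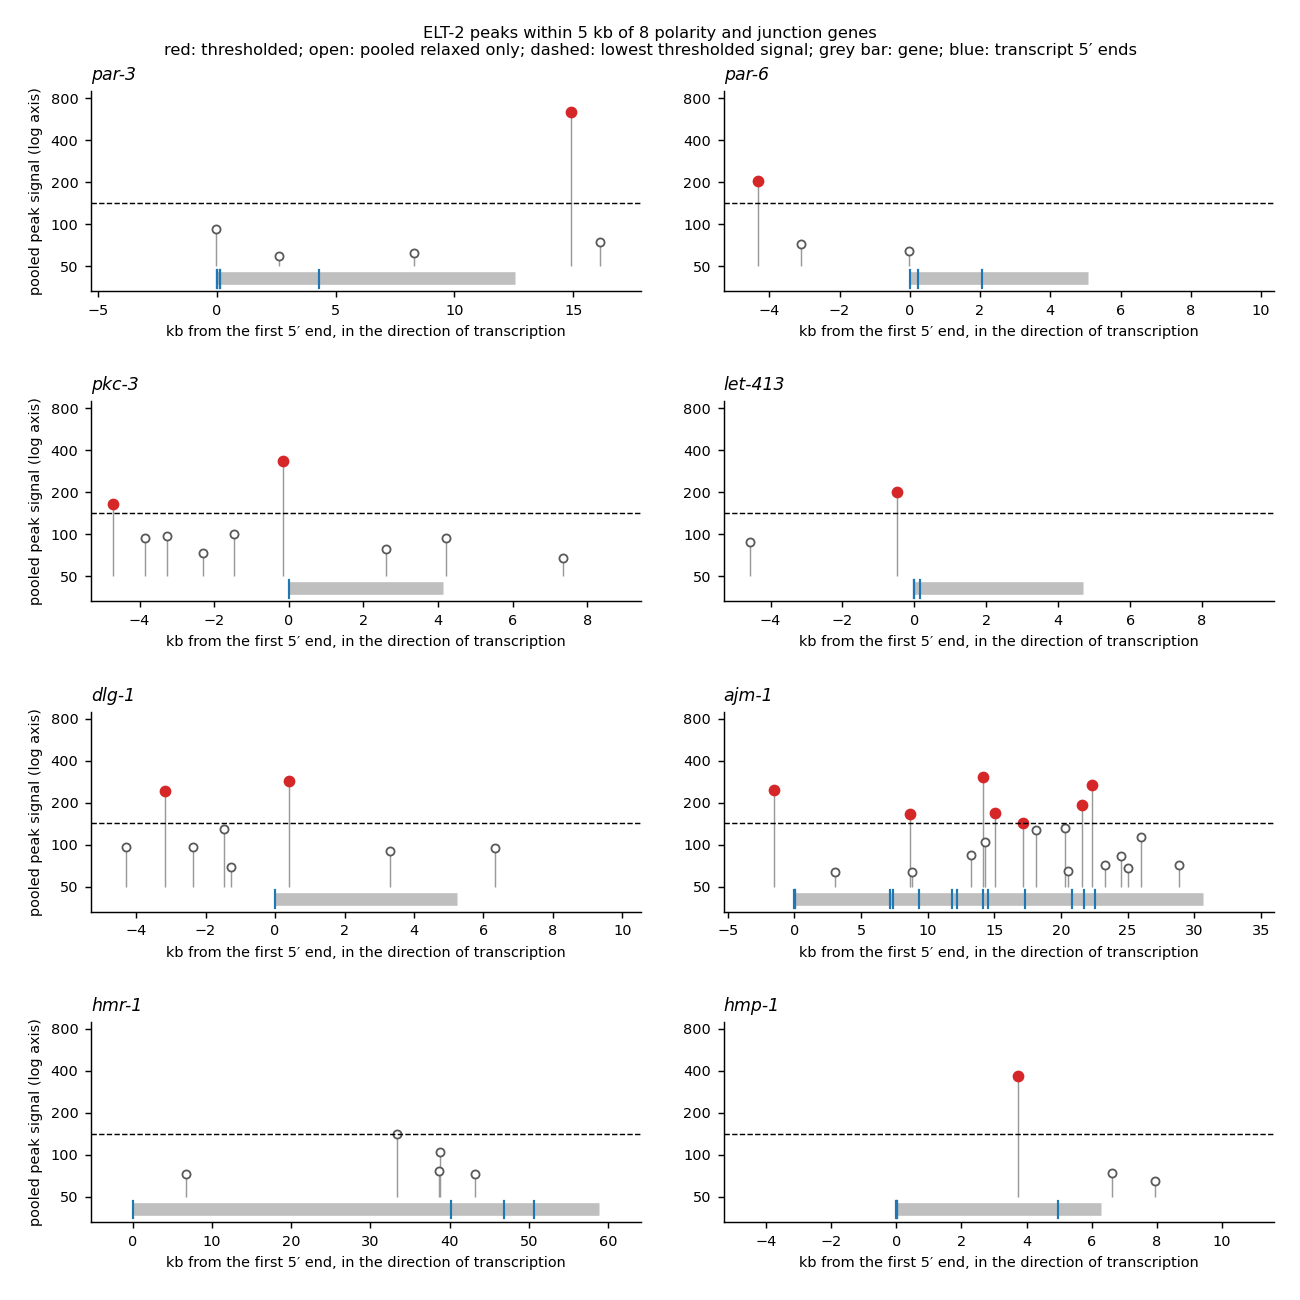
Peaks of the pooled list within 5 kb of each of the 8 genes. The horizontal axis gives distance in kb from the first 5′ end in the direction of transcription and the vertical axis the pooled peak signal on a log scale; red points passed the threshold, open points are relaxed peaks only, the dashed line is the lowest thresholded signal (142.2), grey bars are the genes and blue ticks are transcript 5′ ends. The 7 red points of ajm-1 spread over the gene, the red points of par-3 and par-6 lie away from any blue tick, and hmr-1 has no red point.

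Signal below is the enrichment value the authors' peak caller gave each peak, and rank 1 is the strongest peak of a list. Signal scales differ between lists, so lists are set side by side by rank only. The thresholded list is the 5443 strongest peaks of the pooled list of 16833, its signals running from 142.2 to 6411.6 around a median of 250.4. The relaxed lists of replicate 1 and replicate 2 hold 17177 and 18929 peaks, and read depth is unknown. The 15 peaks had a median rank of 2882 and ran from rank 452 to rank 5377. Among them, 6 belonged to the 2721 strongest peaks and 1 to the 1360 strongest. The median was thus close to the middle of the list, with peaks on both sides of it.

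Sequences at 6 of the summits are shown because they cover the different kinds of site found: promoter peaks with and without the GATA hexamer, the upstream and internal peaks of the junction scaffold genes, and a summit in a tRNA gene. Each runs 5′ to 3′ on the strand of its gene, from the RefSeq sequence of build WBcel235 (ce11), 50 bp to either side of the summit except where an untranslated region ends it sooner. Capitals mark any of 4 GATA hexamers on either strand, which are TGATAA, the variant AGATAA, the variant TGATAG and the variant AGATAG. On the strand shown, TTATCA is the reverse complement of TGATAA and CTATCA that of TGATAG. A sequence with no capitals holds none.
pkc-3, 167 bp upstream (chrII:5379810-5379910, plus strand): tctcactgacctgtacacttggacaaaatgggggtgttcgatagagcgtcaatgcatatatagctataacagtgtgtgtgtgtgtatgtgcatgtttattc
let-413, 490 bp upstream (chrV:7978216-7978316, minus strand): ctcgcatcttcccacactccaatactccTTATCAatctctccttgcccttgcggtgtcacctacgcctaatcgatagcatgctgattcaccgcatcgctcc
dlg-1, 3165 bp upstream (chrX:5476485-5476585, plus strand): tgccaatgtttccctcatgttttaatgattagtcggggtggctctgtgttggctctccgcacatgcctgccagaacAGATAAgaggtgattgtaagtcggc
ajm-1, 1546 bp upstream (chrX:9081350-9081450, plus strand): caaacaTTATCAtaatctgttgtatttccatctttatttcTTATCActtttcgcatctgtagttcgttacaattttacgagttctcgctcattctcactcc
ajm-1, 702 bp upstream of an internal 5′ end (chrX:9091533-9091633, plus strand): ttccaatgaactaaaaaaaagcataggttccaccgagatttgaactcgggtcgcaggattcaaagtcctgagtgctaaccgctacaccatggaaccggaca
ajm-1, 41 bp upstream of another internal 5′ end (chrX:9097014-9097104, plus strand): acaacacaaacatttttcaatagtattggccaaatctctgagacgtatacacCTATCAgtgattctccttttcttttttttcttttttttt

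Of the apical PAR genes, pkc-3 was the one with a thresholded peak at its own promoter. That summit lay 167 bp upstream of the single 5′ end of pkc-3 (chromosome II, peak 5379655 to 5380064). Its signal was 334.1 (rank 1716) in the pooled list. It was 179.9 (rank 1910) in replicate 1 and 151.5 (rank 1613) in replicate 2, so both replicates placed it in a like position. The closest other protein-coding 5′ end, that of prdx-2, was 1018 bp away, and the summit also fell within the noncoding RNA gene F09E5.22 on the opposite strand. None of the 4 hexamers lay in the 101 bp window shown above, and the nearest TGATAA was 256 bp from the summit.

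The other pkc-3 peak lay 4707 bp upstream (peak 5375115 to 5375524) and 53 bp inside the gene algn-2, whose 5′ end was the nearest. Its signal was 164.7 (rank 4649) in the pooled list, 71.8 (rank 6300) in replicate 1 and 83.5 (rank 3951) in replicate 2. It thus ranked outside the 5443 strongest peaks of replicate 1. Between and beyond the 2 peaks the pooled list had 7 weaker ones, none above a signal of 100.7.

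par-3, the scaffold that recruits PAR-6 and PKC-3 to the cortex, had the strongest of the 15 peaks, but it lay 2335 bp beyond the 3′ end of the gene and 10589 bp downstream of the closest par-3 5′ end (chromosome III, peak 5679037 to 5679223). Its signal was 633.8 (rank 452) in the pooled list, 376.0 (rank 408) in replicate 1 and 252.8 (rank 582) in replicate 2. The summit stood between 2 divergent genes, 125 bp upstream of ska-3 and 168 bp upstream of rps-12, a ribosomal protein gene, with the snoRNA gene F54E7.10 at 248 bp. By position it was a peak of that intergenic stretch. At the promoter of par-3 itself a relaxed peak was listed 51 bp upstream of the first 5′ end, with a signal of 92.2 (rank 8641) in the pooled list. The matching relaxed peaks had a signal of 53.8 (rank 8839) in replicate 1 and 37.7 (rank 10088) in replicate 2. They all fell below the threshold, although TGATAA stood 26 bp from the pooled summit.

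par-6, whose protein binds PKC-3 and the small GTPase CDC-42, likewise had its peak beside another gene, on chromosome I. It lay 4336 bp upstream (peak 12664839 to 12665248), 23 bp upstream of T26E3.4. The signal was 204.6 (rank 3595) in the pooled list, 124.2 (rank 3330) in replicate 1 and 78.8 (rank 4221) in replicate 2. At its own 5′ end par-6 had a pooled relaxed peak 32 bp upstream with a signal of 64.4 (rank 14355). Replicate 1 listed a peak there at rank 12485, and replicate 2 listed none in the promoter. No TGATAA lay within 50 bp of either of these pooled summits.

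let-413 had a single promoter peak, 490 bp upstream of its first 5′ end (chromosome V, peak 7978061 to 7978470) and upstream of all 3 annotated 5′ ends. Its signal was 201.8 (rank 3657) in the pooled list, 110.7 (rank 3853) in replicate 1 and 93.8 (rank 3383) in replicate 2. The 3 ranks lay close together, in the weaker part of the thresholded list. The closest other protein-coding 5′ end, that of F26D11.1, was 3279 bp away. TGATAA stood 19.5 bp from the summit, measured to the centre of the hexamer, on the strand opposite to the gene and in the setting ATTGATAAGG.

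dlg-1 codes for a membrane-associated guanylate kinase that holds AJM-1 at the junction, and it had 2 peaks on the X chromosome. The stronger one lay 402 bp downstream of its single 5′ end, in an intron (peak 5479897 to 5480306). Its signal was 287.1 (rank 2205) in the pooled list, 178.4 (rank 1949) in replicate 1 and 121.2 (rank 2318) in replicate 2. As the summit lay 402 bp into the gene, it fell outside the promoter window used here. It coincided with the edge of the noncoding RNA gene C25F6.11, and TGATAA was first met 48 bp from the summit, too far to fit whole within the 50 bp searched.

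The other dlg-1 peak lay 3165 bp upstream (peak 5476330 to 5476739), its summit 42 bp from the noncoding RNA gene C25F6.18. No protein-coding 5′ end of another gene was closer to this peak. Its signal was 240.6 (rank 2882) in the pooled list, 158.2 (rank 2342) in replicate 1 and 92.5 (rank 3461) in replicate 2. The window shown above holds AGATAA but not TGATAA. A relaxed peak between the 2, at 1475 bp upstream, had a pooled signal of 130.1 (rank 5985), just under the threshold. dlg-1 thus had 1.31 thresholded peaks per 10 kb of the gene with its flanks, against 0.670 per 10 kb on the whole X chromosome. Over all 8 genes with their flanks (208 kb) the density was 0.723, against 0.543 for the genome. ajm-1 alone held 7 of those 15 peaks in 40674 bp, so the density of the whole set leans on that gene. The density was below that of the chromosome at par-3 (0.443 against 0.509) and at hmr-1, which had none. It was close to that of the chromosome at hmp-1 (0.614 against 0.548).

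ajm-1, which codes for the coiled-coil protein of the junction belt, had the most peaks of the 8 genes. The gene is 30674 bp long, with 16 annotated transcripts from 14 distinct 5′ ends, and held 6 summits inside it and 1 upstream. At least as many summits inside were found in 7 genes, or 0.0350% of all protein-coding genes, ajm-1 included. Of the 58 genes at least as long as ajm-1, 2 reached that number, again counting ajm-1. The density was 1.72 peaks per 10 kb of the gene with its flanks, against 0.670 for the X chromosome. For comparison, 3 of the 8 genes (dlg-1, ajm-1 and hmp-1) had a thresholded summit inside the gene, against 7.27% of all genes.

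Within 1 kb of 7 of the 14 distinct 5′ ends of ajm-1 there was a thresholded summit, and 5 of its 7 summits fell in the promoter window of an internal 5′ end. Over all thresholded peaks the median distance to the nearest 5′ end was 544 bp, and over the 15 peaks the median distance to the closest own 5′ end was 508 bp, so such nearness is common to the list. The strongest of the 7 lay 41 bp upstream of the 5′ end of transcript C25A11.4a.4, in an intron of longer transcripts (peak summit at 9097064). Its signal was 303.8 (rank 2016) in the pooled list, 179.2 (rank 1933) in replicate 1 and 113.0 (rank 2574) in replicate 2. TGATAA stood 45.5 bp from this summit in the setting GCTGATAACA, within the annotated leader of that transcript, and CTATCA is marked in the sequence above. The next strongest lay 251 bp upstream of the last 5′ end, in a coding exon of all 15 transcripts that span it. Its signal was 266.9 (rank 2475) in the pooled list, 140.1 (rank 2801) in replicate 1 and 131.4 (rank 2031) in replicate 2.

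The peak upstream of the whole ajm-1 gene lay 1546 bp from the first 5′ end, outside the promoter window. Its signal was 247.1 (rank 2777) in the pooled list, 146.0 (rank 2629) in replicate 1 and 99.2 (rank 3114) in replicate 2. It was the only one of the 15 peaks with 2 copies of TGATAA within 50 bp. Both were on the minus strand, at 7.5 bp and 41.5 bp from the summit, in the settings AGTGATAAGA and TATGATAATG.

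The other 4 ajm-1 peaks were weaker. The summit 207 bp upstream of transcript C25A11.4j.1 had a signal of 192.6 (rank 3892) in the pooled list, with rank 3756 in replicate 1 and 4699 in replicate 2. The summit 508 bp downstream of C25A11.4g.1 had a signal of 169.2 (rank 4520), with rank 4041 in replicate 1 and 4860 in replicate 2. These ranks kept both peaks among the 5443 strongest of each replicate.

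The 2 remaining ajm-1 peaks each missed that mark in 1 replicate. The summit 702 bp upstream of C25A11.4k.1 had a signal of 165.7 (rank 4621), with rank 5525 in replicate 1 and 3657 in replicate 2. It lay inside a tRNA gene on the minus strand (chromosome X, 9091557 to 9091628), and the part of tRNA genes in ELT-2 peaks was not tested. Summits inside a tRNA gene made up 0.827% of all thresholded peaks and 1 of the 15. The weakest summit, 123 bp upstream of C25A11.4h.1, had a signal of 143.7 (rank 5377), with rank 5235 in replicate 1 and 6787 in replicate 2. It was just inside the threshold, at which the list ends with rank 5443.

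hmr-1, the single classical cadherin gene of the worm, had no thresholded peak inside it or within 5 kb. It is the longest of the 8 genes, at 58913 bp on chromosome I, and the nearest thresholded summit lay 47865 bp from its outermost 5′ end. Of the 4 protein-coding genes at least as long, hmr-1 included, 2 had no thresholded peak by the same rule. The pooled list held 5 relaxed peaks at the gene. The strongest had a signal of 140.2 (rank 5524), which is 81 places below the threshold, and lay 6761 bp upstream of the 5′ end shared by transcripts W02B9.1a.1 and W02B9.1a.2, in an intron of the long transcript W02B9.1b.1.

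The replicates placed this hmr-1 peak far apart. Its signal was 107.6 (rank 3998) in replicate 1 and 36.1 (rank 10796) in replicate 2, so it was among the 5443 strongest in replicate 1 only. Another relaxed peak, 1312 bp upstream of the same 5′ end, had a pooled signal of 105.4 (rank 7371) and rank 6126 in replicate 1, and replicate 2 listed none there. hmr-1 thus had no peak above the authors' threshold. Its strongest peak, just under the threshold in the pooled list, was among the 5443 strongest of 1 replicate only.

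hmp-1, the alpha-catenin gene that ties the cadherin complex to actin, had 1 peak, the second strongest of the 15. It lay 3744 bp downstream of the first 5′ end and 1208 bp upstream of the internal 5′ end of transcript R13H4.4c.1 (chromosome V, peak 11849410 to 11849819). Its signal was 366.2 (rank 1473) in the pooled list, 205.3 (rank 1506) in replicate 1 and 162.5 (rank 1451) in replicate 2. These 3 ranks were the closest together among the 15 peaks. The summit was in a 3′ untranslated exon of 2 of the 6 transcripts that span it and in an intron of the rest. TGATAA stood 46.5 bp from the summit in the setting TGTGATAAAT.

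**Figure D2:**
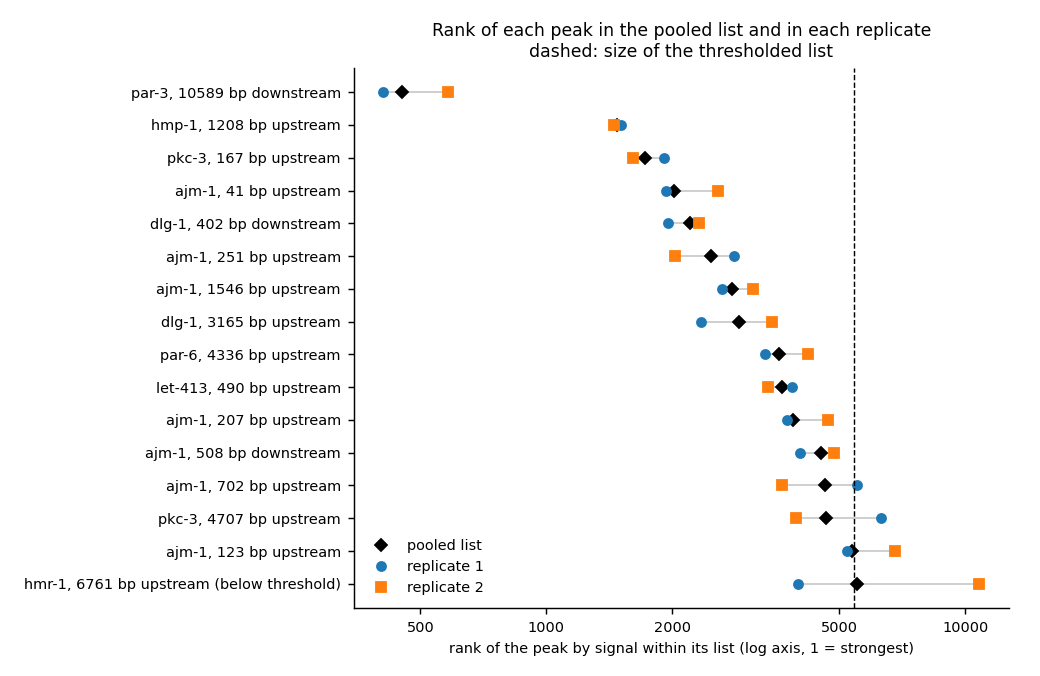
Rank of each of the 15 thresholded peaks, and of the strongest hmr-1 peak, in the pooled list (diamonds), replicate 1 (circles) and replicate 2 (squares). The horizontal axis is the rank by signal within each list on a log scale, rows are named by gene and distance from the closest own 5′ end, and the dashed line marks rank 5443. The hmp-1 ranks nearly coincide (1451 to 1506), whereas the hmr-1 peak ranks 3998 in replicate 1 and 10796 in replicate 2.

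Both replicates listed a peak at each of the 15 places, with summits at most 84 bp from the pooled one. The thresholded list holds the 5443 strongest peaks of the pool of these same replicates, so presence in both is not separate evidence. Among the 5443 strongest peaks of both replicates were 12 of the 15, against 81.4% of all thresholded peaks. The 3 that were not are the algn-2 side peak of pkc-3, the tRNA peak of ajm-1 and the weakest ajm-1 peak. The larger replicate rank was 1.04 to 1.59 times the smaller, with a median of 1.27. All 7 genes with a thresholded peak had at least 1 held by both replicates at this mark.

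TGATAA on either strand lay within 50 bp of the summit at 4 of the 15 peaks (26.7%), against 45.0% of all thresholded peaks. The 4 were the peak of let-413, that of hmp-1 and 2 of ajm-1. Windows of the same width 500 bp to either side of all summits held it in 10.4% and 9.90% of cases, and 3 and 0 of the 15 member windows did. Within 100 bp the counts were 7 of 15 (46.7%) against 59.8%, and within 25 bp 2 of 15 (13.3%) against 27.1%. Side windows reaching 100 bp from their centres held TGATAA in 4 (left) and 5 (right) of the 15 cases. With 150 bp they held it in 4 and 6 cases, against 8 at the summits. With the other 3 GATA hexamers added, 6 of 15 (40.0%) held a hexamer within 50 bp, against 57.7% of all thresholded peaks and 21.6% and 20.3% of their side windows. The side windows of the 15 peaks held one in 5 cases on the left and 1 on the right, so the left side was close to the 6 at the summits. The share at these genes was below that of the whole list at each width, on 15 peaks and with no test of the difference. No member of the PAR trio had any of the 4 hexamers within 50 bp of a thresholded summit.

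**Figure D3:**
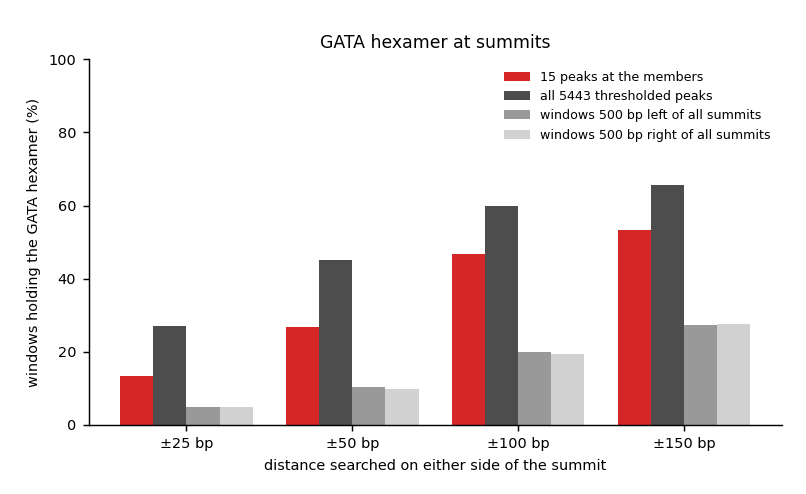
Share of windows that hold TGATAA on either strand, in percent, at 4 distances from the summit. Red bars are the 15 peaks at the 8 genes, dark bars all 5443 thresholded peaks, and lighter bars windows centred 500 bp to the left and right of all summits. The red bars lie below the dark ones and above the lighter ones at each distance, for example 26.7%, 45.0% and 10.4% within 50 bp. Side windows of the 15 peaks themselves are not drawn.

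Other genes of the same machinery were taken from a list of 35 junction, polarity and membrane skeleton genes. By the same rule 20 of the 35 (57.1%) had a thresholded peak, against 45.8% of all protein-coding genes. In 9 (25.7%) a summit lay inside the gene, against 7.27% of all genes. A summit in a promoter was found for 13 (37.1%), against 17.0% of all genes. The respective figures for the 8 genes were 87.5%, 37.5% and 37.5%. The 35 genes are long, with a median of 9571 bp against 2027 bp for all genes, so they have more room for a peak. The strongest promoter peak was at clc-1, which codes for a claudin-like protein, 62 bp upstream with a signal of 869.8 (rank 192). It ranked above each of the 15 peaks.

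Some polarity genes among the 35 had promoter peaks, weaker than that of clc-1, and others had no thresholded summit in a promoter. At par-2, whose protein opposes the PAR-3 complex in the embryo, the summit lay 650 bp upstream (signal 383.7), although rab-18 was nearer. At par-5, a 14-3-3 gene, it lay 230 bp upstream (signal 308.7), although M117.3 was nearer. For crb-3, of the Crumbs family, and num-1, the Numb gene, the summit fell past the gene start. The crb-3 summit preceded a later 5′ end of crb-3 by 882 bp (signal 233.7). The num-1 summit preceded a later 5′ end of num-1 by 279 bp (signal 218.9).

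Scaffold and spectrin genes were in the same range. The promoter peak of spc-1 (alpha-spectrin) had a signal of 292.3, at 777 bp upstream of the gene. That of unc-70 (beta-spectrin) had 233.1, at 39 bp upstream of an internal 5′ end. Those of the guanylate kinase scaffold genes magu-2 and magi-1 had signals of 270.0 and 213.7, at 142 bp and 448 bp upstream of internal 5′ ends. vab-10, a spectraplakin gene, had 176.6 at 846 bp upstream of an internal 5′ end. Of these polarity, spectrin and scaffold genes, par-2 alone had a promoter peak with a higher signal than that of pkc-3.

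Genes of the intestinal brush border and its filament layer, which line the apical face that the PAR proteins mark, carried stronger peaks by the median. All 10 in the list had a thresholded peak near, against 45.8% of all genes, and 9 (90.0%) had one in a promoter, against 17.0%. The median rank of the strongest peak per gene was 673, against 2016 for the 7 polarity and junction genes that have one and 2489 for the 20 others. The promoter peak of ifd-1 had a signal of 668.2, that of ifp-1 655.7 and that of ifb-2 609.1, all intermediate filament genes, and that of the intestinal actin gene act-5 617.8. These 4 exceeded the strongest promoter peak of the 8 genes, 334.1 at pkc-3. Not all of the list did: the promoter peaks of ifc-1 (329.1), ifd-2 (255.3) and eps-8 (210.4) were below it and erm-1 had none, genes named after their values were seen. These differences are given without a test.

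**Figure D4:**
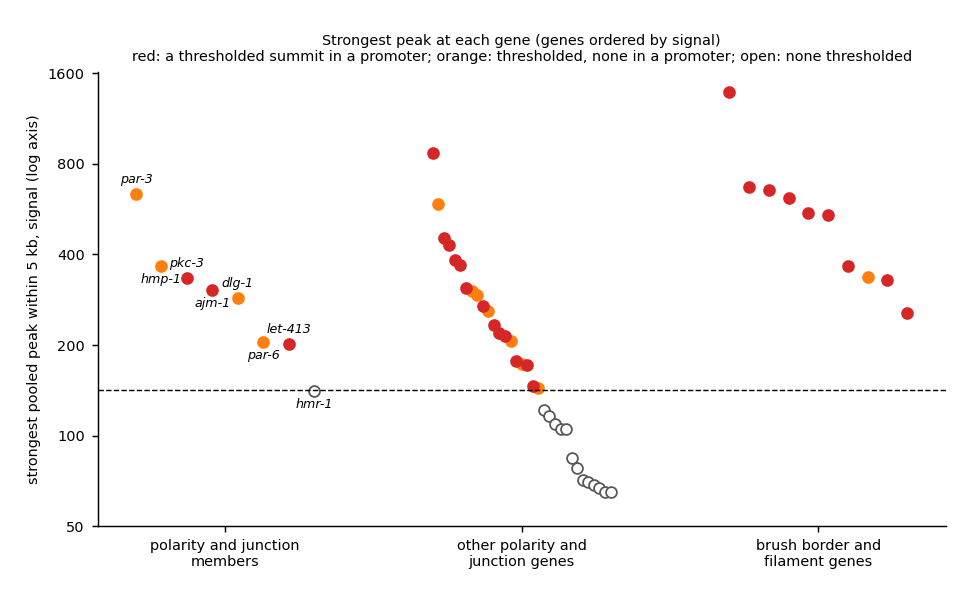
Signal of the strongest pooled peak within 5 kb of each gene, on a log axis, for the 8 polarity and junction genes, the 35 others of that machinery and 10 brush border and filament genes. Red points have a thresholded summit in a promoter, orange points a thresholded peak but none in a promoter, open points none, the dashed line is the lowest thresholded signal (142.2), and genes without any pooled peak are not drawn. The brush border genes lie at 255.3 to 1388.8, and the 8 genes at 140.2 to 633.8. For every gene the strongest peak within 5 kb counts, whichever gene is nearest. The 633.8 is the par-3 peak beside ska-3 and rps-12, and the next of the 8 genes is hmp-1 at 366.2.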

How the data were processed

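ChIP-seq of tagged ELT-2 was done on 2 biological replicates of whole L1 larvae, per the labels. The deposited signal and −log10 q-value of each peak are the authors' values; only the signal was used to rank peaks, since 8 of the 15 peaks share the q-value ceiling of 3.83. Per the labels and accompanying notes, relaxed lists were made per replicate and on pooled replicates, and the thresholded list by IDR, which compares peak ranks between replicates. The sources used here name no aligner, caller, IDR threshold or version (each not given in the sources used here). The files hold no read counts, so depth is unknown and no interval follows. ce10 lists were not used. Coordinates are 1-based on ce11 (WBcel235, Ensembl release 115 genes, RefSeq sequence), and all 45 gene symbols of the 2 comparison lists matched. Members and lists were chosen with earlier results of these data known, so no test was run. All 8 genes are named. So are up to 10 of the 35 others with promoter peaks, and up to 4 brush border genes, by signal, and neighbours nearer to a peak than any member 5′ end. prdx-2, rps-12, F26D11.1 and noncoding genes beside a peak were named after their positions were seen. Alternatives covered distance, promoter window, motif, list strictness and each replicate. Counting functions were tested on planted positions. Python 3.11.15, NumPy 2.4.6, pandas 2.3.3 and matplotlib 3.10.9 were used.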

Additional observations from a re-analysis of the deposited data

How the results depend on the processing

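The count of 7 genes with a thresholded peak became 3 (7.27% of all genes) inside the gene only, 5 within 2000 bp (30.5%), 5 in the 2721 strongest peaks (28.2%), 5 by nearest 5′ end (19.4%) and 8 for any pooled relaxed peak (75.6%), an alternative chosen after seeing the data. Using the 5443 strongest peaks of a single replicate gave 7 without replicate 1 (44.9% of all genes) and 8 without replicate 2 (45.8%), the addition being hmr-1. The promoter count of 3 became 5 with 3000 bp upstream and 500 bp downstream (25.2% of all genes). With any pooled relaxed peak it was 5 (33.8%), also chosen after seeing the data. It was 2 in the 2721 strongest peaks (8.86%), 3 without replicate 1 (16.5%) and 3 without replicate 2 (17.0%). The 4 peaks with TGATAA became 2 within 25 bp and 7 within 100 bp. Without replicate 1 the count was 6 and without replicate 2 it was 4, each among another set of peaks than the 15. Among the 12 peaks nearest to a member's own 5′ end, a restriction added after seeing the data, it was 4 of 12. For these changed sets no share over all peaks was computed, so their counts cannot be compared as shares. The 12 peaks and 7 genes held by both replicates did not change with a 250 bp distance or any overlap. Of the 35 other genes, 20 became 11 in the 2721 strongest peaks, where 28.2% of all genes had one. All 10 brush border genes kept a peak within 2000 bp and in the 2721 strongest. The causes were not tested. No paired analysis was possible because there is 1 group. With 15 peaks, 2 replicates and no read counts, a missing peak says only that none passed the threshold, and signals carry no error.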
